A study of Mus musculus with 8 samples.

Results

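The genes of fatty acid oxidation described here are 35 listed members, from the carnitine shuttle that carries fatty acids into mitochondria to the peroxisomal enzymes that shorten chains. They were taken by mouse symbol from a table of raw counts with 49315 genes, and the rule that lists them uses no measured value, though the list was drawn up with earlier results of these data known. By the main place of the encoded protein, 22 were counted as mitochondrial, 6 as dual or cytosolic and 7 as peroxisomal. RNA sequencing was done on 8 libraries from hearts of C57BL/6 mice, 4 from females and 4 from males. Both groups were of the age labelled 8-week, shared that strain, and carried no allele, agent or treatment named in the labels. C57BL/6 is an inbred strain, and sex was the 1 label that differed between the groups. Whether the 4 libraries of a sex are 4 animals is not stated, so the p-values measure only the spread between these samples, which may be technical. The part of the heart, the batch and the date are not labelled either.

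In mitochondrial beta-oxidation, fatty acyl groups cross the inner membrane as carnitine esters and are then shortened in repeated turns of dehydrogenation, hydration, a second dehydrogenation and thiolytic cleavage. Each turn yields acetyl-CoA, and the electrons of the first step pass through the electron transfer flavoprotein to the respiratory chain. The adult heart takes most of its energy from this pathway. Peroxisomes run a related chain of reactions on very long, branched and dicarboxylic acids, pass the first electrons to oxygen and hand the shortened chains to mitochondria.

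Short stretches upstream of members are shown here because the counts turn on these genes or because members share the stretch. Acads is the 1 member called below, Acadm is the 1 member whose window held AAGGTCA, and Hadha and Hadhb are transcribed in opposite directions from the same stretch. Acads upstream covers chr5:115119347-115119596 on the minus strand. Acadm upstream covers chr3:153944644-153944893 on the minus strand. The stretch between Hadha and Hadhb covers chr5:30155163-30155247 on the plus strand. All are RefSeq sequence of build GRCm38.p6, written 5′ to 3′, with GGGCGG or AAGGTCA on either strand in capitals.
Acads upstream: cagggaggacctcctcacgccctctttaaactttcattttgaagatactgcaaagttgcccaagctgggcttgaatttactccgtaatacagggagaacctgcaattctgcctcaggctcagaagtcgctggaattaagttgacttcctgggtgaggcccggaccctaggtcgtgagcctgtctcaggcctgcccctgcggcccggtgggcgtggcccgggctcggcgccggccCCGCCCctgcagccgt
Acadm upstream: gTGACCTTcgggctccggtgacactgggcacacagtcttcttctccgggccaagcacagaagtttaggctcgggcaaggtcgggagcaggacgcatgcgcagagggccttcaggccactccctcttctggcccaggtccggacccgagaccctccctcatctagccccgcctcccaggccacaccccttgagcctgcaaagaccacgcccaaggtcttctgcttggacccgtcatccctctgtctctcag
Stretch between Hadha and Hadhb: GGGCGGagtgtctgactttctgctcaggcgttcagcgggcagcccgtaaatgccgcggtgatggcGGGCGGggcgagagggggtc

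RefSeq promoter windows, from 250 bases before to 50 after a start, were found for 27 of the 35 members, as 28 windows. GGGCGG, the GC box bound by Sp1 family factors, was in 20 of the 28 windows (71.4%) and in 35.7% of all 32851 windows. All windows were taken whether or not the gene was expressed in heart, and were not matched to the members by base content. Whether the GC box is particular to these members was therefore not tested. AAGGTCA, the core bound by estrogen-related receptors, was in 3.57% of member windows and in 4.72% of all windows. AGGTCA followed after 1 base by AGGTCA, the direct repeat bound by PPAR and RXR, was in 0 member windows and in 0.0396% of all windows. An exact repeat is so rare in all windows that 0 of 28 does not set the members apart. Both strands were searched, and a match to this repeat contains AAGGTCA where the base between is A. The RefSeq starts of Hadha (30154980) and Hadhb (30155253), which encode the subunits of the mitochondrial trifunctional protein, lie 272 bases apart on chromosome 5. A match is only a run of letters and does not show binding.

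Depth and the marker sums of several cell types differed between the sexes in these libraries. The female libraries held 32746054 to 35467832 counts and the male ones 39612848 to 47097765, and 1 count was worth 0.0218 to 0.0302 CPM, counts per library size scaled as described below. Mitochondrially encoded genes took 9.96 to 11.39% of the counts in females and 12.09 to 12.53% in males. The 10 cardiomyocyte markers summed to between 93339 and 104477 CPM in the 8 libraries, so the heart label matched its defining markers, and 0 of them were called (0 at an unadjusted p below 0.05 and 0 in DESeq2). The white adipocyte markers summed to 678 to 852 CPM in females and 564 to 665 CPM in males, and 9 of 12 were called higher in females. Fabp4, which was not called (edgeR adjusted p = 0.3), made most of each sum, with means of 527 CPM in females and 494 CPM in males. The sums therefore show less of a gap than the called markers do. Adiponectin (Adipoq) was highest in female replicates 2 and 3, at 19.3 and 20.6 CPM, against 9.69 and 11.8 CPM in the other female and 1.62 to 4.6 CPM in the male libraries. Of 9 brown adipocyte markers tested of 10, Ucp1 and Dio2 were called higher in females and Cox8b and Cox7a1, which heart muscle also expresses, higher in males. The 10 brown adipocyte markers summed to 1555 to 1685 CPM in females and 1737 to 1820 CPM in males. Most of each sum came from Cox7a1 (means of 853 and 980 CPM in females and males) and Cox8b (582 and 647 CPM). The sums therefore say little about the other markers of this list. The brown adipocyte uncoupling gene Ucp1 spanned 9.37 to 81.1 CPM in females and 0.0234 to 3.6 CPM in males. Fibroblast markers summed to 1030 to 1056 CPM in females and 870 to 979 CPM in males (2 of 8 called higher in females, Lum and Smoc2). Hepatocyte markers summed to 38.7 to 46.8 CPM in females and 55.8 to 58.8 CPM in males, with 4 of 8 called higher in males (Alb, Apoa2, Serpina1c and Cps1). Endothelial markers overlapped in their sums (906 to 1041 against 921 to 1018 CPM) and 0 of 8 were called (4 at an unadjusted p below 0.05 and 2 in DESeq2). Leukocyte markers summed to 85.4 to 90.5 CPM in females and 88.3 to 168 CPM in males, with male replicate 1 at 168 CPM and S100a9 called higher in females. Atrial markers were at 511 CPM in male replicate 4 and at 2319 to 2815 CPM in the other libraries, and 0 of 6 were called (0 at an unadjusted p below 0.05 and 0 in DESeq2). In none of these lists was a marker at 0 in all 8 libraries, and the part of other cells in the results below was not tested.

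Fatty acid oxidation genes differed little between male and female hearts, and the small differences leaned toward males. Acads, the short-chain acyl-CoA dehydrogenase, rose by 1.14-fold in males and was the 1 member of 35 that passed the test (edgeR's quasi-likelihood test over 16180 genes, with a Benjamini-Hochberg adjusted p under 0.05). That is 2.86% of the members, against 2.03% of all genes tested that were called higher in males and 3.79% called in either direction. No member was called higher in females (0 of 35), where 1.76% of all genes were. At an unadjusted p below 0.05 there were 17 members, all with the higher mean in males and none with the higher mean in females, or 48.6% against 10.1% of all genes on the male side and 19.5% on either side. The log2 fold change, male minus female, was above 0 in 30 of 35 members and in 49.7% of all genes. Its median was 0.09 over the members, with a range from -0.16 to 0.19, and -7e-04 over all genes. In these bulk samples, fewer cells of a type and less RNA per cell cannot be told apart.

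**Figure D1:**
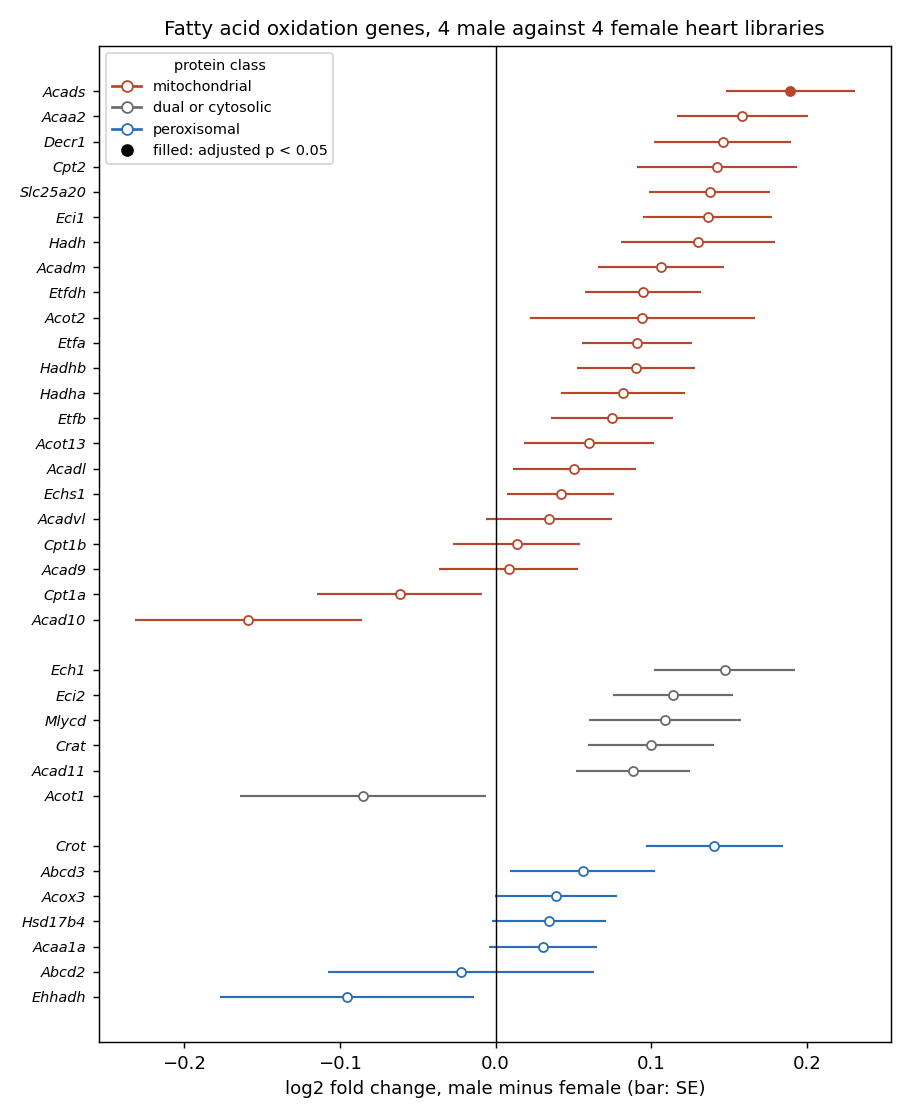
Log2 fold change of each of the 35 members, male minus female, on the horizontal axis with its standard error as the bar (4 libraries of each sex), grouped and coloured by protein class. The filled point is Acads at 0.19, the 1 member with an adjusted p below 0.05, and 30 of 35 points lie right of 0.

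The lean, as measured from 0, depended on how the libraries were scaled. CPM were scaled by the trimmed mean of M-values (TMM), whose factors were 1.009 to 1.029 in females and 0.9697 to 0.9959 in males and so separated the sexes. Without that scaling the median of all genes moved to -0.056 and that of the members to 0.03, with 22 of 35 members above 0. In that fit 0 members were called, against 771 of all genes (4.77%, either direction). With or without the scaling, the members' median lay above that of all genes. In scaled CPM, every male value lay above every female value in 13 members (37.1%), against 6.39% of all genes. These were Slc25a20, Acadm, Acads, Hadhb, Acaa2, Eci1, Decr1, Etfa, Etfdh, Crat, Eci2, Ech1 and Crot. The reverse held in 0 members, against 5.66% of all genes. In CPM without TMM scaling, the male values lay above the female ones in 3 members (8.57%), Slc25a20, Acads and Ech1, against 2.82% of all genes, and below them in 1, Acad10, against 11.3% of all genes. As a share of all counts the 35 members took 1.52, 1.48, 1.47 and 1.51% in the female libraries and 1.53, 1.51, 1.55 and 1.59% in the male libraries. Those shares overlapped, with means of 1.5 ± 0.0237% (SD, n = 4) and 1.54 ± 0.0338%.

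**Figure D2:**
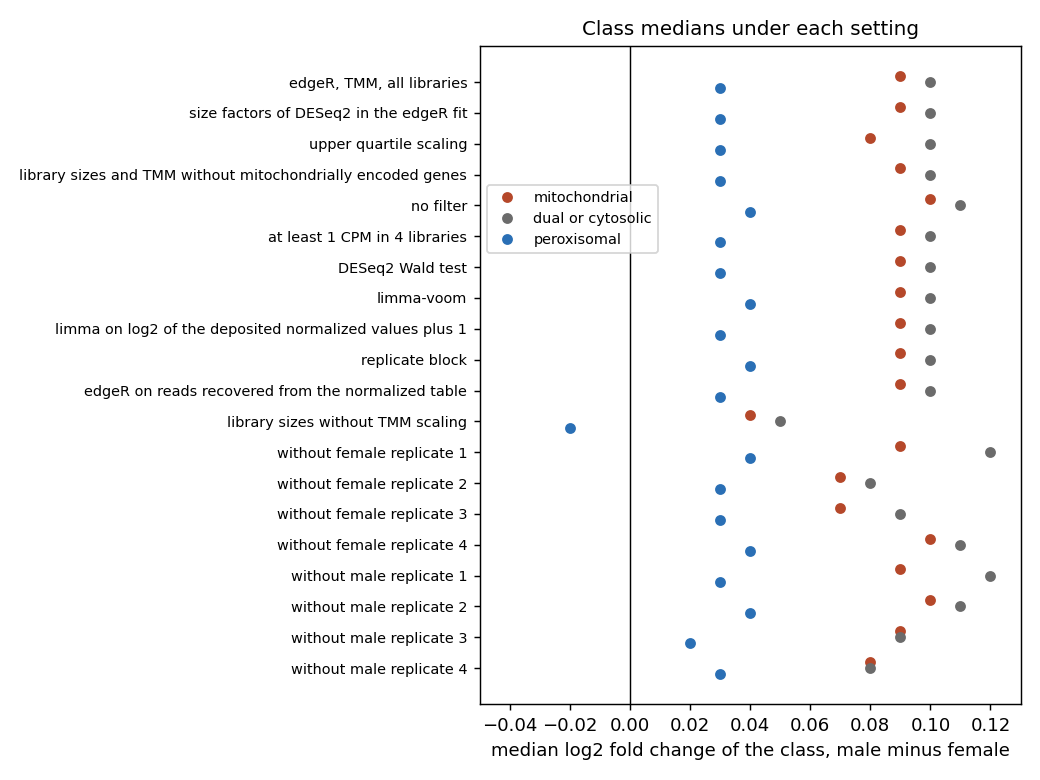
Median log2 fold change, male minus female, of the mitochondrial (22), dual or cytosolic (6) and peroxisomal (7) members under each setting, from 0.09, 0.10 and 0.03 in the edgeR fit with TMM scaling. Without TMM scaling the medians were 0.04, 0.05 and -0.02, and the peroxisomal one changed sign.

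Individual libraries differed within each sex. Male replicate 4, the library with the low atrial markers, had the highest CPM of the 8 libraries for 16 members and male replicate 3 for 9. Female replicate 2 had the lowest CPM for 12 members and female replicate 3 for 11. These female libraries were also the ones with the highest adipocyte markers, and the part of atrial or adipose tissue in the members' values was not tested. For the mitochondrial members, the median log2 deviation from the mean of the 8 libraries was -0.02, -0.07, -0.06 and -0.02 in the female libraries and 0.03, -0.01, 0.07 and 0.09 in the male ones. Male replicate 2 thus sat close to female replicates 1 and 4.

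**Figure D3:**
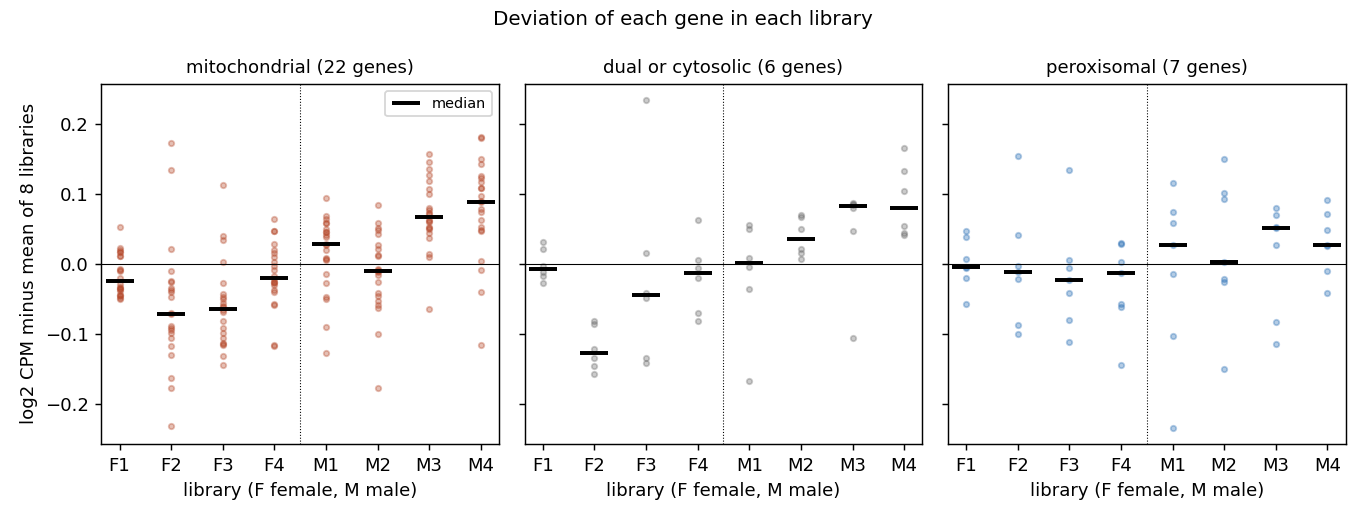
Log2 CPM of each member minus its mean over the 8 libraries, on the vertical axis, for female (F1 to F4) and male (M1 to M4) libraries in 3 panels by protein class, where points are genes and black bars medians. The mitochondrial medians run from -0.07 in F2 to 0.09 in M4, while single genes within a library spread more widely than these medians.

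In the carnitine shuttle, 3 of 4 members had a log2 fold change above 0 and none was called by edgeR (2 at an unadjusted p below 0.05, and Slc25a20 alone in DESeq2). Slc25a20 encodes the carnitine-acylcarnitine translocase of the inner membrane (chromosome 9, 108662088 to 108684641). It had 193, 187, 186 and 194 CPM in the female libraries and 200, 206, 222 and 208 CPM in the male libraries. Every male value lay above every female value, with a log2 fold change of 0.14 ± 0.04 (SE) and an adjusted p of 0.077 by edgeR. Cpt2 is the carnitine palmitoyltransferase of the matrix side (chromosome 4, 107903981 to 107923610). Its female libraries held 282, 255, 280 and 283 CPM and its male libraries 283, 294, 309 and 327 CPM. The lowest male library met the female ones, and the log2 fold change was 0.14 ± 0.05 (edgeR adjusted p = 0.15). Cpt1a and Cpt1b encode the liver and muscle forms of the outer-membrane enzyme that malonyl-CoA inhibits. Cpt1a was at 70.9 ± 5.79 CPM in females and 68 ± 1.49 CPM in males (edgeR adjusted p = 0.57), and Cpt1b was at 112 ± 1.47 and 113 ± 6.13 CPM (adjusted p = 0.9).

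Cpt1b may be undercounted, because 81.4% of its exon bases (628 are left) are shared with the choline kinase gene Chkb on the same strand in the deposited annotation, and how reads in shared bases were treated is not stated. In RPKM, which is CPM per kilobase of summed exon length, Cpt1a made 33.1 ± 1.94% of Cpt1a plus Cpt1b in females and 32 ± 1.25% in males. With the Cpt1b counts set over its unshared bases alone, the share was 8.44 ± 0.676% and 8.07 ± 0.425%. The muscle form was the larger on either length, the size of the gap depends on that length, and the sexes overlapped on both. Chkb itself was at 48.8 ± 2.07 CPM in females and 51.6 ± 2.28 CPM in males.

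Of the 6 acyl-CoA dehydrogenases, which open each turn of the cycle, Acads was called and 5 had a log2 fold change above 0. Acads (chromosome 5, 115110299 to 115119346) acts on short chains, and its upstream stretch is printed above. It was at 266, 244, 262 and 252 CPM in the female libraries and at 282, 283, 300 and 303 CPM in the male libraries. All male values were above all female values, and replicates 3 and 4 were the highest males. The means were 256 ± 9.82 and 292 ± 10.9 CPM (SD, n = 4), with a log2 fold change of 0.19 ± 0.04 (edgeR adjusted p = 0.029). Without TMM scaling its values still did not overlap, at 251 to 269 CPM in females against 278 to 295 CPM in males, and the adjusted p was 0.065. The call was also lost on leaving out female replicate 2 (0.08), 3 (0.054) or 4 (0.078) or male replicate 3 (0.09) or 4 (0.063), each an adjusted p by edgeR, with log2 fold changes from 0.16 to 0.21 over the 8 fits that left out a library. Acadm is the medium-chain enzyme (chromosome 3, 153922357 to 153944632). It reached 1174, 1171, 1111 and 1181 CPM in females and 1257, 1181, 1244 and 1308 CPM in males. The log2 fold change of Acadm was 0.11 ± 0.04 with an adjusted p of 0.17 by edgeR, and male replicate 2 equalled the top female library to the rounding of these values.

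Acadl, the long-chain dehydrogenase (chromosome 1, 66830839 to 66863277), was the most abundant of this role per summed exon length, at 515 RPKM, though not when bases shared with other genes are left out of the length. It was at 1018, 1004, 984 and 1052 CPM in females and 1037, 1000, 1069 and 1097 CPM in males, so the sexes overlapped (0.05 ± 0.04 on the log2 scale, edgeR adjusted p = 0.53). Acadvl, the very-long-chain enzyme of the inner membrane, was at 908 ± 17 and 930 ± 43.8 CPM (adjusted p = 0.7). It shares 42.9% of its exon bases with Dvl2 on the opposite strand, and reads of such genes cannot be told apart without strand. With its counts set over the unshared bases alone, Acadvl stood at 599 RPKM, above Acadl. Acad9, which also serves in the assembly of respiratory complex I, was level at 48 ± 1.64 and 48.3 ± 2.52 CPM. Acad10, a less studied family member, had the lowest log2 fold change of all members, -0.16 ± 0.07, at 8.28 ± 0.314 CPM in females and 7.41 ± 0.526 CPM in males (edgeR adjusted p = 0.26).

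The 5 genes of the next steps of the spiral all had a log2 fold change above 0, from 0.04 to 0.16, and none was called by edgeR (3 at an unadjusted p below 0.05, and Acaa2 alone in DESeq2). Acaa2, the mitochondrial 3-ketoacyl-CoA thiolase that cleaves off acetyl-CoA, came closest, with an adjusted p of 0.064 by edgeR and a log2 fold change of 0.16 ± 0.04. It was at 1000, 952, 946 and 985 CPM in the female libraries and 1075, 1014, 1133 and 1111 CPM in the male libraries. The sexes did not overlap, though male replicate 2 lay close to female replicate 1. Acaa2 passed the threshold without male replicate 2 (adjusted p = 0.033), with no filter on low counts (0.049) and in DESeq2 (0.0062), and did not without TMM scaling.

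Hadha and Hadhb carry the hydratase and long-chain dehydrogenase, and the thiolase, of the trifunctional protein. Hadha (chromosome 5, 30118304 to 30155162) averaged 1805 ± 39.9 CPM in females and 1910 ± 86.8 CPM in males, with overlap (edgeR adjusted p = 0.29). Hadhb (chromosome 5, 30155248 to 30184593) averaged 1267 ± 36.5 and 1348 ± 42.2 CPM, without overlap (adjusted p = 0.21). Hadhb CPM over Hadha CPM ran from 0.674 to 0.731 in the 8 libraries, at 0.702 ± 0.0154 in females and 0.706 ± 0.0243 in males. Hadh, the short-chain 3-hydroxyacyl-CoA dehydrogenase, was at 649 ± 29.6 CPM in females and 710 ± 41 CPM in males (adjusted p = 0.17). Echs1, the short-chain enoyl-CoA hydratase, was at 398 ± 8.8 and 409 ± 7.53 CPM (adjusted p = 0.55).

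Both auxiliary enzymes that prepare unsaturated chains for the spiral had non-overlapping values and missed the threshold in edgeR, though both passed it in DESeq2. Eci1 is the enoyl-CoA isomerase that shifts double bonds (chromosome 17, 24426683 to 24439316). Its values were 309, 280, 283 and 298 CPM in females and 327, 311, 330 and 318 CPM in males. Its log2 fold change was 0.14 ± 0.04 (edgeR adjusted p = 0.096), and the lowest male was just above the highest female. Decr1 is the dienoyl-CoA reductase (chromosome 4, 15917240 to 15945507). Its values were 373, 367, 349 and 379 CPM in females and 397, 383, 419 and 426 CPM in males. Its log2 fold change was 0.15 ± 0.04 (edgeR adjusted p = 0.095), again with a narrow gap between male replicate 2 and the top female.

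**Figure D4:**
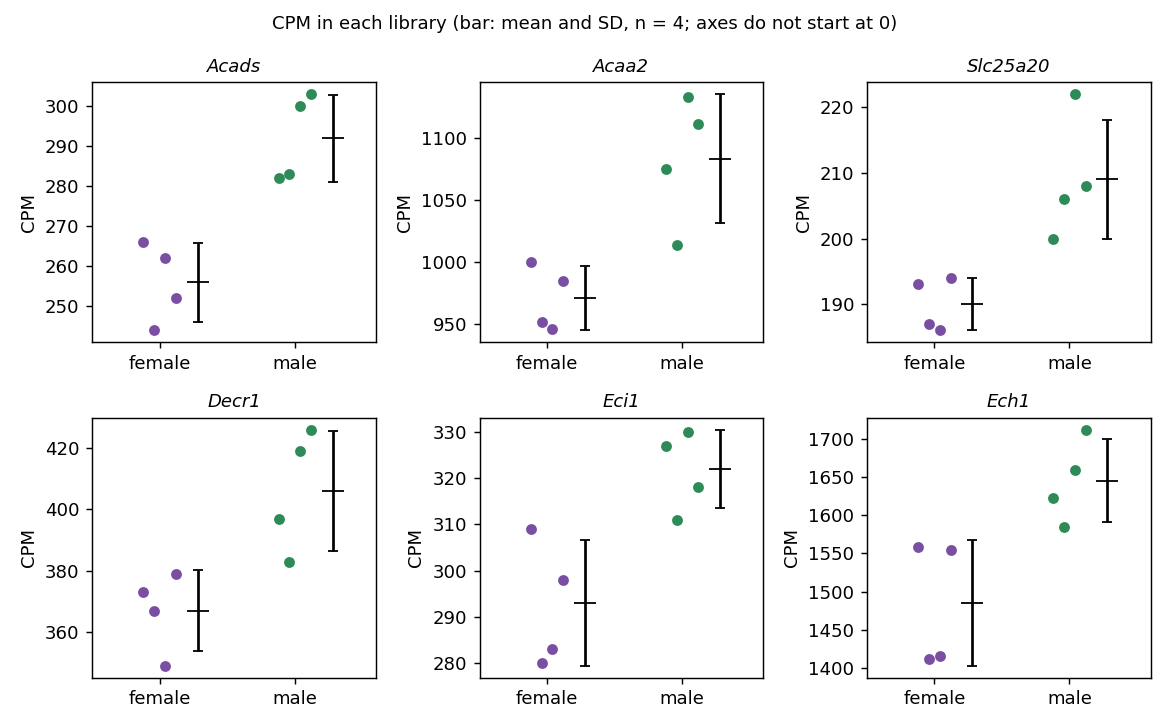
CPM in each library for Acads, the 1 member called, and the 5 members with the next smallest p-values, with points for the 4 female and 4 male libraries of each gene and bars for the mean and SD. The vertical axes do not start at 0. In all 6 genes, chosen by p-values on these same data, the male points lie above the female points. For Acads the closest are 282 and 266 CPM. Without TMM scaling, only Acads, Slc25a20 and Ech1 of these genes keep that separation.

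The electron transfer genes lay between 0.07 and 0.09 on the log2 fold change scale, and none of the 3 was called by edgeR (2 at an unadjusted p below 0.05 and 0 in DESeq2). Etfa, the alpha subunit of the flavoprotein that takes electrons from the dehydrogenases (chromosome 9, 55454508 to 55512243), stood at 629, 628, 609 and 650 CPM in females and 676, 654, 666 and 683 CPM in males. The sexes did not overlap, with an edgeR adjusted p of 0.18 and means of 629 ± 16.7 and 670 ± 12.7 CPM. Etfdh, which passes the electrons on to ubiquinone, was at 667 ± 22.7 and 712 ± 14.5 CPM (adjusted p = 0.19). Etfb, the beta subunit, was at 203 ± 8.34 and 213 ± 5.44 CPM (adjusted p = 0.32). Etfb held 0.311 to 0.331 CPM per CPM of Etfa in the 8 libraries, and 58.2% of its exon bases are shared with Gm45233 and Mir7051 in the annotation, so it may be undercounted.

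Thioesterases release free fatty acids from CoA. Acot13, the more abundant mitochondrial member here (chromosome 13, 24817948 to 24831517), stood at 236, 215, 229 and 235 CPM in females and 238, 243, 245 and 227 CPM in males. Male replicate 4 lay below 3 female libraries, and the log2 fold change was 0.06 ± 0.04 (edgeR adjusted p = 0.47). Acot2, a mitochondrial long-chain thioesterase, was at 107 ± 9.38 and 114 ± 10.1 CPM (adjusted p = 0.52). Its cytosolic neighbour Acot1 was at 31.5 ± 3.5 and 29.7 ± 2.36 CPM (adjusted p = 0.61). These genes are near copies: 31.8% of the Acot1 transcript and 32.9% of the Acot2 transcript lie in identical runs of at least 50 bases (723 bases), and how reads matching both were counted is not stated. Acot1 as a share of Acot1 plus Acot2 counts was 22.4, 22.5, 24 and 21.8% in females and 21.2, 21.5, 19.7 and 20.1% in males. Every male share was below every female share. This ratio was picked out after its values were seen and was given no test, and the pair's sum overlapped at 139 ± 12.5 and 144 ± 12.1 CPM.

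Among the 6 dual or cytosolic members, 5 had a log2 fold change above 0, with a median of 0.10, and none was called by edgeR (5 at an unadjusted p below 0.05, and Ech1 alone in DESeq2). Ech1, a dienoyl-CoA isomerase found in both mitochondria and peroxisomes (chromosome 7, 28825217 to 28832247), stood at 1558, 1412, 1416 and 1555 CPM in females and 1623, 1585, 1659 and 1712 CPM in males. Female replicates 2 and 3 were low together, and the gap between the sexes was narrow, at a log2 fold change of 0.15 ± 0.05 (edgeR adjusted p = 0.099). Eci2, an enoyl-CoA isomerase of both organelles, was at 155 ± 6.92 and 168 ± 2.4 CPM (adjusted p = 0.13). Crat, the carnitine acetyltransferase that buffers acetyl-CoA, was at 649 ± 21.6 and 695 ± 25.4 CPM (adjusted p = 0.2), without overlap in either of these genes. Mlycd, which breaks down the Cpt1 inhibitor malonyl-CoA, was at 165 ± 7.17 and 178 ± 10.8 CPM (adjusted p = 0.25). Acad11, a dehydrogenase of longer chains, was at 177 ± 6.58 and 188 ± 3.28 CPM (adjusted p = 0.21).

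The 7 peroxisomal members showed the smallest median, 0.03, and none was called by edgeR in either direction (1 at an unadjusted p below 0.05, Crot, and 0 in DESeq2). Abcd3, a transporter of the peroxisomal membrane (chromosome 3, 121758774 to 121815302), stood at 128, 133, 126 and 136 CPM in females and 124, 142, 138 and 140 CPM in males. The sexes overlapped, since male replicate 1 was the lowest of all 8 libraries (log2 fold change 0.06 ± 0.05, edgeR adjusted p = 0.56). Abcd2, a transporter of very long chains, was rare at 5.79 ± 0.0982 and 5.7 ± 0.538 CPM. Hsd17b4, the bifunctional enzyme that also handles branched chains, was at 120, 109, 115 and 117 CPM in females and 119, 117, 119 and 119 CPM in males. The male values lay inside the female range (adjusted p = 0.66). Acaa1a, the peroxisomal thiolase, was at 93.3 ± 2.05 and 95.3 ± 2.71 CPM (adjusted p = 0.68), and 52.6% of its transcript is shared in such runs with Acaa1b. Acox3, an oxidase of branched chains, was at 35.6 ± 0.383 and 36.5 ± 1.54 CPM (adjusted p = 0.64). Ehhadh, the other bifunctional enzyme, was at 21 ± 1.92 and 19.7 ± 1.94 CPM (adjusted p = 0.57).

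Crot was the exception within this class in its TMM-scaled values, though not in a test. It encodes the carnitine octanoyltransferase that prepares shortened chains for export from peroxisomes (chromosome 5, 8966033 to 8997324). It was at 30.6, 29.2, 28.7 and 29.8 CPM in females and 32.3, 34.4, 32.8 and 30.8 CPM in males. Male replicate 4 was just above female replicate 1, and the log2 fold change was 0.14 ± 0.04 (edgeR adjusted p = 0.1). In CPM without TMM scaling the sexes overlapped, with male replicate 4 at 30 CPM and female replicate 1 at 30.9 CPM.

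Mitochondrial against peroxisomal steps were compared by the summed CPM of each class. The 22 mitochondrial members summed to 11867, 11474, 11326 and 11833 CPM in females and 12270, 11889, 12603 and 12864 CPM in males. The sums did not overlap, the nearest being female replicate 1 and male replicate 2, and the means were 11625 ± 267 and 12406 ± 422 CPM (1.07-fold). The 7 peroxisomal members summed to 436, 428, 427 and 433 CPM in females and 429, 447, 450 and 448 CPM in males. Here male replicate 1 lay among the females, at means of 431 ± 4.24 and 444 ± 9.63 CPM (1.03-fold). The dual or cytosolic members summed to 2662 ± 112 and 2903 ± 89.1 CPM (1.09-fold, no overlap). These folds and gaps carry the TMM scaling. Without it the mitochondrial sums overlapped between the sexes, with male replicate 2 below female replicate 1. The dual or cytosolic sums then overlapped too, with male replicate 1 just below female replicate 1. The log2 ratio of the unscaled sums, male over female, was 0.04 for mitochondrial and -0.01 for peroxisomal members.

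The ratio of the classes within a library does not depend on scaling. Peroxisomal CPM were 3.67, 3.73, 3.77 and 3.66% of mitochondrial CPM in the female libraries and 3.5, 3.76, 3.57 and 3.49% in the male libraries. The sexes overlapped through male replicate 2, with means of 3.71 ± 0.0509% and 3.58 ± 0.128%. No test of a difference between the classes was made, because a p over a chosen list was not computed, so these values do not show that the sex difference was unlike between the classes.

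Levels between members are compared per length. By summed exon length, Ech1 (685 RPKM, mean of 8 libraries), Acaa2 (678), Acadl (515) and Etfa (354) were the highest and Abcd2 (1.04) and Acad10 (1.29) the lowest. Ech1 and Acaa2 did not differ beyond their spread, at 650 ± 36 and 641 ± 17.2 RPKM in females. The other leaders of a role were Acot13 (324), Eci1 (281), Cpt2 (121), Hsd17b4 (34.3), Abcd3 (20.2) and Crot (5.69). Summed exon length counts every annotated exon, so it lowers genes with many alternative or retained stretches. Over the length of the principal transcript in the GENCODE M21 annotation, Ech1 stood at 1235 RPKM, Acaa2 at 677, Hadhb at 638, Acadm at 588 and Acadl at 539. Echs1 moved from 48.7 to 259 RPKM and Acaa1a from 21.4 to 53.5 RPKM with that length. On either length the 7 peroxisomal members lay at or below 53.5 RPKM, and the mitochondrial members below that were Cpt1a, Cpt1b, Acad9, Acad10 and Acot2, with Slc25a20 and Echs1 joining them by summed exon length alone. With counts set over unshared exon bases alone, Cpt1b stood at 180 RPKM, Acadvl at 599, above Acadl, and Etfb at 428, above the 354 of Etfa by summed exon length, so the order within these roles depends on the overlaps. Such values are upper estimates if reads in shared bases were counted.

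**Figure D5:**
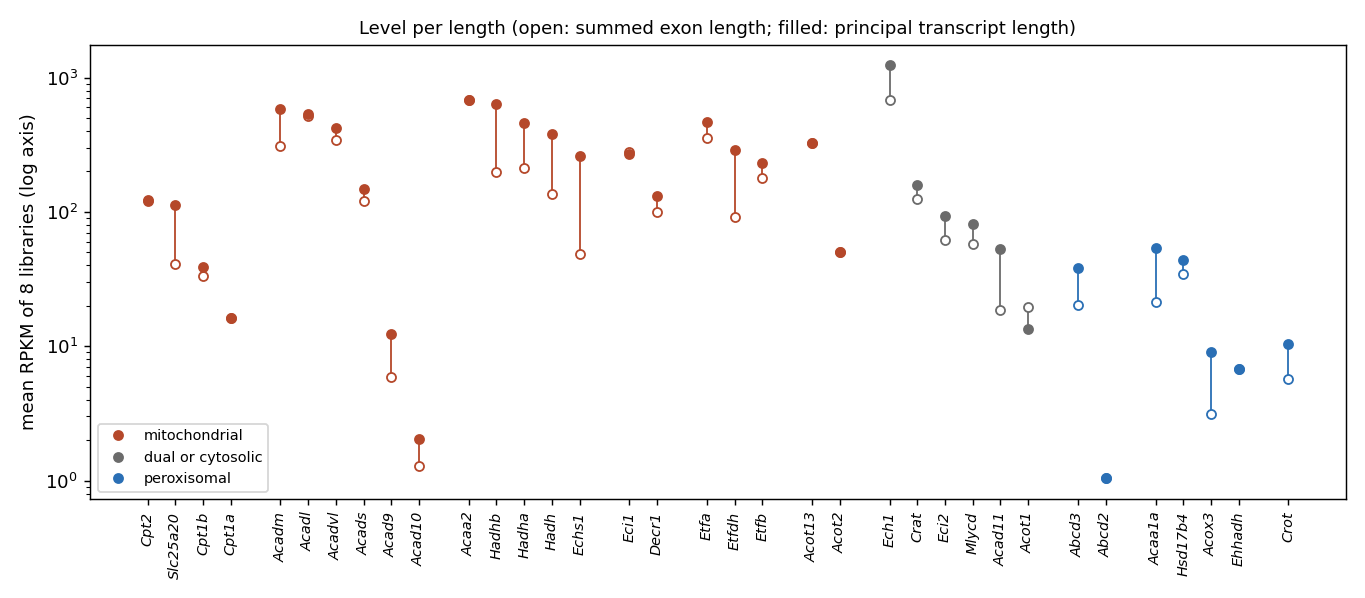
Mean RPKM of the 8 libraries on a log axis for each of the 35 members, grouped by role and coloured by protein class, with open points for summed exon length and filled points for principal transcript length. The range runs from 1.04 for Abcd2 to 1235 for Ech1, and the longest lines mark genes such as Echs1 (48.7 and 259) whose level depends on the length used.

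Other genes of the pathway, taken from 4 lists, held 3 called genes among 53 tested, where 3.79% of all genes were called in either direction. Of these, 1 was higher in males (1.89%, against 2.03% of all genes) and 2 were higher in females (against 1.76% of all genes). Among 11 genes of acyl-CoA activation, carnitine uptake and malonyl-CoA synthesis, 1 was called in each direction and the median log2 fold change was -0.02. Acsl6, a long-chain acyl-CoA synthetase, rose in males from 11.3 ± 1.58 to 15.3 ± 0.916 CPM (log2 fold change 0.43 ± 0.09, edgeR adjusted p = 0.024). Its call was lost in 5 of the 8 fits that left out a library, without female replicate 2, 3 or 4 or male replicate 2 or 3 (edgeR adjusted p from 0.054 to 0.063). Acaca, the acetyl-CoA carboxylase that makes malonyl-CoA for fatty acid synthesis, was lower in males (-0.71 ± 0.14 on the log2 scale, edgeR adjusted p = 0.018). It was at 22.1, 29.7, 31.3 and 18.6 CPM in females and 16, 16.1, 14.1 and 16.1 CPM in males. Female replicates 2 and 3, with the highest adipocyte markers, were the highest for Acaca too, and the part of adipose tissue in this was not tested. Without female replicate 2 the edgeR adjusted p of Acaca was 0.051 and without male replicate 3 it was 0.056. Acacb, the other acetyl-CoA carboxylase of this list, was far more abundant and level. It was at 530 ± 27.1 CPM in females and 540 ± 61.1 CPM in males (edgeR adjusted p = 0.88).

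Of 17 other peroxisomal oxidation genes tested of 18 (Eci3 was too low), Slc27a2 was called and the median log2 fold change was 0.01. DESeq2 also called Phyh, the phytanoyl-CoA hydroxylase of branched chains, and Acaa1b, a near copy of Acaa1a. Phyh was at 490 ± 11.1 CPM in females and 534 ± 8.23 CPM in males (edgeR adjusted p = 0.072), and Acaa1b at 1.29 ± 0.53 and 0.641 ± 0.195 CPM (edgeR adjusted p = 0.095). Slc27a2, a very-long-chain acyl-CoA synthetase, was at 1.12, 2, 3.28 and 0.955 CPM in females and 0.752, 0.736, 0.516 and 0.436 CPM in males. Again female replicates 2 and 3 were highest (log2 fold change -1.61 ± 0.37, edgeR adjusted p = 0.038), and the call was lost in limma-voom (adjusted p = 0.069). It was also lost without female replicate 2 or 3 or any 1 male library, with edgeR adjusted p from 0.051 to 0.1. None of the 10 other mitochondrial acyl-CoA genes was called by edgeR (4 at an unadjusted p below 0.05, and Acad8 and Acsf2 in DESeq2; median 0.05), and Acad8, the isobutyryl-CoA dehydrogenase of valine breakdown, had the smallest p. It was at 49.3 ± 0.769 CPM in females and 54.1 ± 1.32 CPM in males (edgeR adjusted p = 0.0501). None of 15 peroxins, the genes of peroxisome assembly, was called (2 at an unadjusted p below 0.05 and 0 in DESeq2; median 0.05), and Pex11a, a factor of peroxisome division, had the smallest p, at 21.7 ± 0.364 and 24.4 ± 1.35 CPM (edgeR adjusted p = 0.081).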

How the data were processed

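Heart RNA of 8 libraries was made into sequencing libraries with the TruSeq RNA kit, per the labels' protocols. The authors deposited raw counts per gene, and the submitters' processing notes name the tools Trimmomatic 0.36, STAR 2.5.2b, featureCounts and Subread 1.5.2 and the build GRCm38 (mm10). Which annotation and strand setting were used, and how reads in several places or genes were counted, is not given in the sources used here. The authors also deposited a normalized signal for 16160 genes, equal to counts divided by a size factor per library (0.863 to 1.196, found from the values). Multiplied back, 100% of its values came out whole within 0.01, and edgeR on those reads called 604 genes, Acads the 1 member among them.

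Symbols matched 48970 of 49315 IDs. With filterByExpr, at a minimum count of 10 and a minimum total of 15, 16180 genes stayed, all 35 members among them. After TMM scaling, males were tested against females by the quasi-likelihood F-test (edgeR 4.0.16, R 4.3.3). P-values were adjusted over all genes tested by Benjamini-Hochberg. The SE was taken as the size of the log2 fold change over the root of its F. CPM are on TMM-scaled library sizes and values after ± are SDs of 4 libraries unless marked SE. Alternatives were other scalings and filters, DESeq2 1.42.0, limma-voom with limma 3.58.1, limma on log2 of the deposited signal plus 1, a replicate block and leaving out each library. Reads recovered from the signal, no TMM scaling and principal transcript length were added after the data were seen. The procedure was tested on simulated data.

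The members, the 4 pathway lists and the 8 marker lists were chosen with earlier results of these data known. Called members, the 5 others with the smallest p and the most abundant member of each role are given library by library. Of each pathway list every called gene is named, or else the one with the smallest p.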

Additional observations from a re-analysis of the deposited data

Results flagged for a closer look

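In 70 groups of 4 values (35 members in each sex), 4 had a lowest or highest library whose gap to the nearest value, divided by the range, was above Dixon's critical value for 4 values, where chance gives about 1 in 20. Cpt2 was at 255 CPM in female replicate 2 and at 280 to 283 CPM in the other females. Acadm was at 1111 CPM in female replicate 3 and at 1171 to 1181 CPM in the other females. Eci2 was at 171 CPM in male replicate 3 and at 166 to 167 CPM in the other males. Hsd17b4 was at 117 CPM in male replicate 2 and at 119 CPM in the other males. Each lies in a different library, and the gaps for Eci2 and Hsd17b4 are a few CPM wide.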

How the results depend on the processing

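Of 19 alternatives, 0 called a member higher in females and 0 called a peroxisomal member. Calls for all genes, in either direction, were 959 in DESeq2 (3.14% of 30541 genes), 917 with no filter (3%) and 771 without TMM scaling (4.77%). Without 1 library they were 315 to 490 (1.94 to 3.01%), with 315 on omitting male replicate 3, 354 on omitting female replicate 2 and 379 on omitting female replicate 3. Members called higher in males were 2 with no filter (both mitochondrial), 6 in DESeq2 (5 mitochondrial and 1 dual or cytosolic), 0 without TMM scaling and 0 to 2 without 1 library, for all members and for mitochondrial members alike. The DESeq2 calls were Slc25a20, Acads, Acaa2, Eci1, Decr1 and Ech1.

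The values showed no pairing by replicate number. Deviations of same-numbered libraries from the mean of their sex correlated at 0.024, -0.016, 0.054 and -0.047, and not every library correlated best with its own number. Whether same-numbered libraries shared a batch was not tested. With the replicate block 427 genes were called (2.64%), 0 of them members (0 mitochondrial), and Acads had an edgeR adjusted p of 0.062.

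Without TMM scaling the medians were 0.04 (mitochondrial), 0.05 (dual or cytosolic), -0.02 (peroxisomal) and 0.03 (all 35 members), and the log2 ratios of summed levels were 0.04, -0.01 and 0.04 for mitochondrial, peroxisomal and all members (0.09, 0.04 and 0.10 with it). With the dual or cytosolic members counted as peroxisomal the peroxisomal median was 0.06. In RPKM the peroxisomal sum was 2.3% of the mitochondrial one in females and 2.2% in males. Without 1 library the medians ran from 0.07 to 0.10 (mitochondrial), 0.08 to 0.12 (dual or cytosolic) and 0.02 to 0.04 (peroxisomal). Uncalled members near 0 changed sign: without TMM scaling Cpt1b (-0.04), Acadvl (-0.02), Acadl (-0.00), Acad9 (-0.05), Echs1 (-0.01), Acox3 (-0.02), Hsd17b4 (-0.02) and Acaa1a (-0.02), and over the fits without 1 library Cpt1b (-0.01 to 0.04), Acad9 (-0.01 to 0.04) and Abcd2 (-0.06 to 0.02). The causes were not tested. With 4 libraries a sex, a member that missed the threshold is not shown to be equal between the sexes.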
